A study of Mus musculus with 6 samples.

Results

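The transcripts described here are those of hemoglobin and of the red cell membrane, measured in whole brains of mouse embryos at E15.5 (embryonic day). They were chosen by a list of 9 gene symbols: the adult globins Hba-a1, Hba-a2, Hbb-bt and Hbb-bs, the embryonic globins Hbb-y, Hbb-bh1 and Hba-x, and the membrane genes Slc4a1 and Epb42. Of these, 6 symbols had a RefSeq transcript ID among the 23485 IDs of the count tables, and each had 1 ID: Hbb-bt (NM_008220), Hbb-y (NM_008221), Hbb-bh1 (NM_008219), Hba-x (NM_010405), Slc4a1 (NM_011403) and Epb42 (NM_013513). No ID matched the other 3 symbols, Hba-a1, Hba-a2 and Hbb-bs, so both adult alpha-globins and one of the adult beta-globins were not analysed here. The globins measured were therefore 4 of the 7 listed, with 1 adult and 3 embryonic transcripts.

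The study compared male with female embryos, 3 samples per sex. All embryos were wild-type C57BL/6 and untreated, and sex was read from the testicular cords. Each sample was RNA pooled from 2 to 3 embryos, so each value is an average over a pool and the embryos within it cannot be separated. Whether the brains were perfused or washed free of blood, and whether globin RNA was depleted from the libraries, is not given in the sources used here. Because a pool of tissue is measured, fewer red cells and less RNA per red cell cannot be told apart.

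Hemoglobin is a tetramer of paired alpha-like and beta-like chains, each holding a heme with its iron. In the mouse the first red cells arise in the yolk sac and make embryonic globins, the zeta chain (Hba-x) with the epsilon-y (Hbb-y) and beta-h1 (Hbb-bh1) chains. Later red cells arise in the fetal liver and make adult chains, and both generations circulate in the fetus, reaching the brain through its vessels. Slc4a1 encodes band 3, the chloride and bicarbonate exchanger that anchors the red cell membrane to its skeleton, and Epb42 encodes protein 4.2, which binds band 3.

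The samples held 4908565 to 10294443 counts each. CPM values (counts scaled to a common library total) use totals corrected by edgeR's TMM factors, which were 0.940 to 1.03. A count of 0 allows up to 3 counts, or 0.291 to 0.611 CPM at these depths, and this floor covers counting error only. No sample was a copy of another, since chi-square over its degrees of freedom was 9.03 to 44.9 between replicates. The sex markers matched the labels: Xist had 6153 to 10001 counts in the female and 4 to 7 in the male samples. In summed CPM, 11 neural marker genes reached 3254 to 3601 in the female and 3367 to 4219 in the male samples.

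The genes lie in the 2 globin clusters and at separate loci on the NCBIM37 (mm9) assembly. Hbb-bt spans chr7:110961038-110962510, Hbb-bh1 chr7:110990150-110991678 and Hbb-y chr7:111000259-111001754, all on the minus strand. Hba-x lies on the plus strand of chr11:32176400-32178116, Slc4a1 on the minus strand of chr11:102210138-102227517 and Epb42 on the minus strand of chr2:120843627-120862808. The GENCODE annotation of this build names the Hbb-bt gene Hbb-b2, and it was matched through its RefSeq start. Hbb-bt and Hbb-bs have coding sequences that are 99.8% identical, and 331 of the 604 windows of 100 bases in the Hbb-bt transcript (54.8%) also occur in Hbb-bs. How reads that fit both were assigned is not stated, so the Hbb-bt count may hold reads of Hbb-bs or lack reads that fit both. The 3 embryonic globins shared 0 such windows with any other globin of the list. Their coding sequences were 74.1% (Hbb-y) and 73.9% (Hbb-bh1) identical to that of Hbb-bt and 76.4% identical to each other.

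The 150 bases before the RefSeq start are printed for the 3 globins with the most counts, to show how an adult and 2 embryonic promoters differ in short motifs known from globin genes. Capitals mark the CCAAT box, the CACCC box, the GATA motif (searched as GATAA) and the TATA-type motif (searched as ATAAA). Both strands were searched, so a box read on the minus strand is printed as its reverse complement. The windows are chr7:110962438-110962587 (minus strand) for Hbb-bt, chr7:111001722-111001871 (minus strand) for Hbb-y and chr11:32176450-32176599 (plus strand) for Hba-x, with starts from RefSeq and bases from NCBIM37.
Hbb-bt: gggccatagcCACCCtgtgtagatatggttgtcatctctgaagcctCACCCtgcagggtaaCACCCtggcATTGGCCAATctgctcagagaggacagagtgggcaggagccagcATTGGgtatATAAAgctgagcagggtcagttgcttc
Hbb-y: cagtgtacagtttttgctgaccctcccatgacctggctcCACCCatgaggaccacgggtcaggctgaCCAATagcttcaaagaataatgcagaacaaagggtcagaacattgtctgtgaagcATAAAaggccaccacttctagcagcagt
Hba-x: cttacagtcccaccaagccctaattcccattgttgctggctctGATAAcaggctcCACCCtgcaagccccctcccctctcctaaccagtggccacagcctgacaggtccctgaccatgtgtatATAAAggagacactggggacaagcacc
The Hbb-bt window held the CCAAT box 3 times and the CACCC box 3 times. One minus-strand and one plus-strand CCAAT stand side by side in it, from -80 to -71 relative to the start. The Hbb-y window held 1 CCAAT from -83, and the Hba-x window held no CCAAT and 1 GATAA from -107. All 3 had CACCC and an ATAAA that began at -28 or -27. Over the same length, the CCAAT box was found in 24.5%, the CACCC box in 37.4%, the GATA motif in 13.3% and the TATA-type motif in 24.1% of 32851 promoters, so each motif alone is common. A match is only a run of letters and does not show that a factor binds.

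Adult beta-globin was by far the most abundant of these transcripts. Hbb-bt ranked 123rd of the 23485 IDs by mean CPM, which is not corrected for length, and it had 784, 714 and 619 CPM in female samples 1 to 3 and 960, 973 and 535 CPM in male samples 1 to 3. The highest samples were male 1 and male 2 and the lowest was male 3, so the male samples lay on both sides of the female ones. These levels rested on 3589 to 9289 counts per sample. The means were 706 ± 83.1 CPM in the female and 823 ± 249 CPM in the male samples (SD, n = 3 each).

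The embryonic globins were still measured at E15.5. Hbb-y, the epsilon-y chain, had 168, 99.9 and 86.3 CPM in female samples 1 to 3 and 113, 146 and 55.8 CPM in male samples 1 to 3. The means were 118 ± 43.8 CPM in the female and 105 ± 45.6 CPM in the male samples (SD, n = 3 each), and the groups overlapped in part, with female 1 above all male samples and male 3 below all female samples. Hba-x, the only alpha-like chain with an ID, had 56.4, 62.3 and 35.5 CPM in the female and 38.3, 60.3 and 23.2 CPM in the male samples. The means were 51.4 ± 14.1 and 40.6 ± 18.7 CPM (SD, n = 3 each), and again 1 male sample, male 2, lay among the highest and male 3 was the lowest.

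Hbb-bh1, the beta-h1 chain, was close to the limit of the depth. It had 8, 10 and 8 counts in the female and 28, 9 and 4 counts in the male samples, or 0.400 to 2.90 CPM. Every sample was above the floor of 3 counts, but only male 1 had more than 10 counts, so the 7.24-fold span from the lowest to the highest sample rests on few reads.

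Both membrane genes were measured in all samples. Slc4a1 (band 3) had 43.8, 37.2 and 36.9 CPM in the female and 41.7, 34 and 29.4 CPM in the male samples, with means of 39.3 ± 3.89 and 35.0 ± 6.21 CPM (SD, n = 3 each). It had the smallest spread of the 6 transcripts, with a span of 1.49-fold over all samples. Epb42 (protein 4.2) had 22 to 27 counts per sample, which corresponded to 2.65 to 4.98 CPM in the female and 2.40 to 4.12 CPM in the male samples.

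**Figure D1:**
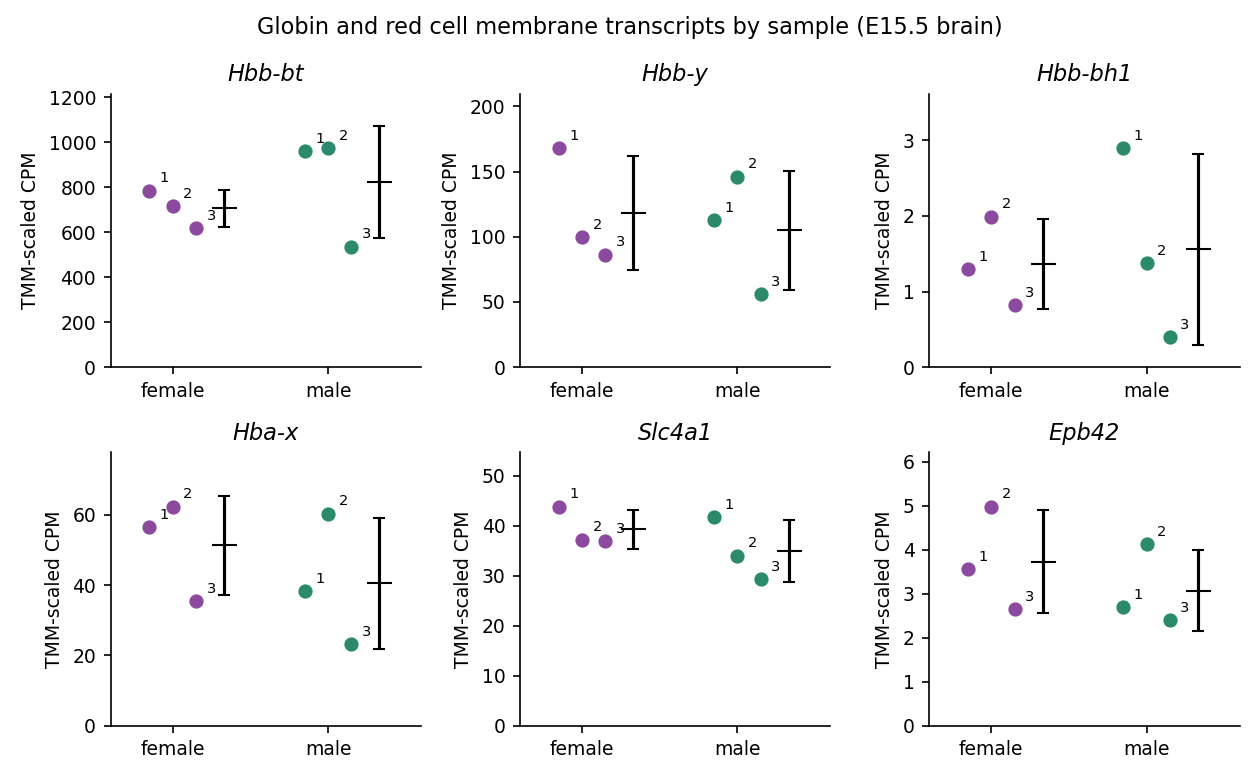
TMM-scaled CPM (y axis, from 0) of the 6 transcripts in the 3 female and 3 male samples, each point 1 sample with its replicate number, with the mean and SD of each sex drawn beside the points. The sexes overlap in all 6 panels, and male 3 is the lowest point in each.

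CPM values are not corrected for transcript length, so the levels of the 6 transcripts were ordered as CPM per kilobase. On that scale the order was Hbb-bt with a mean of 1087, Hbb-y with 169, Hba-x with 57.4, Slc4a1 with 8.18, Hbb-bh1 with 2.38 and Epb42 with 0.826 over the 6 samples. The ranges of neighbours in this order did not overlap, except for Hbb-bh1 and Epb42. Even so, Hbb-bh1 was the higher of that pair in 6 of 6 samples, by 1.12 to 7.22-fold per kilobase. Per kilobase, Hbb-bt exceeded Hbb-y by 4.39 to 9.01-fold within a sample, with the smallest ratio in female 1 and the largest in male 3. Hbb-y exceeded Hba-x by 1.94 to 3.61-fold per kilobase.

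**Figure D2:**
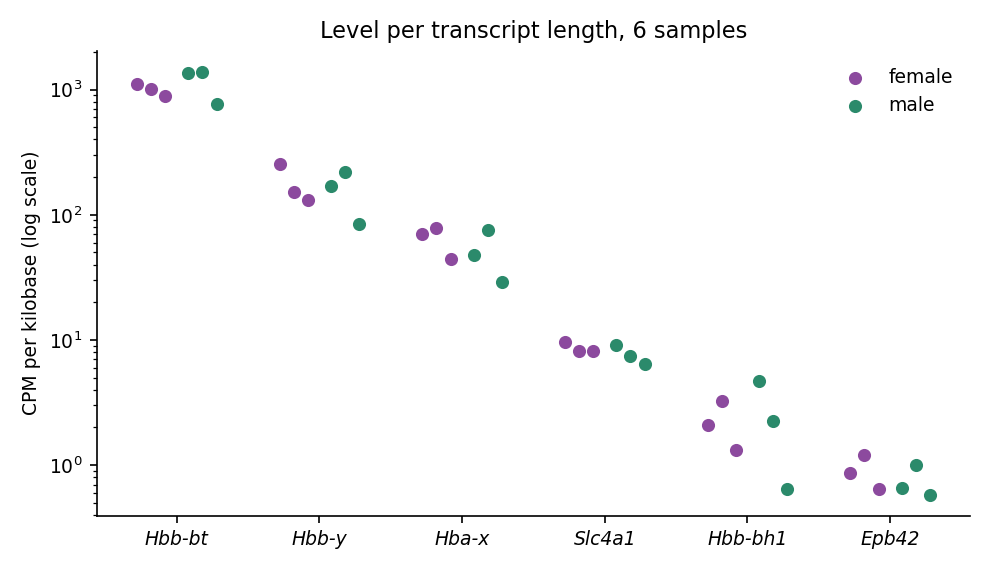
CPM per kilobase of transcript (y axis, log scale) for each transcript, ordered by its mean, with 1 point per sample coloured by sex. The levels fall from a mean of 1087 for Hbb-bt to 0.826 for Epb42, and only the Hbb-bh1 and Epb42 points overlap with their neighbour.

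The embryonic share of globin RNA can be read within a sample and does not depend on the library total. Hbb-y, Hbb-bh1 and Hba-x together held 22.3%, 18.7% and 16.5% of the counts of the 4 measured globins in female samples 1 to 3, and 13.8%, 17.6% and 12.9% in male samples 1 to 3. The Wilson 95% intervals of these shares, which cover counting error only, were 21.3 to 23.4% in female 1 and 12.1 to 13.8% in male 3, the samples at the extremes. The share was lower in male 1 and male 3 than in all female samples, while male 2 lay between female 2 and female 3. The means were 19.2% ± 2.94 in the female and 14.8% ± 2.48 in the male samples (SD, n = 3 each). The difference of -4.41 percentage points did not pass a two-sided exact permutation test (p = 0.2), for which 3 against 3 samples allow no p below 0.1. Leaving out 1 sample at a time gave -5.82 points without male 2 to -2.84 points without female 1. These are shares of the 4 transcripts with an ID. The adult chains that were not analysed here would enter the denominator, so the values are not shares of all globin RNA.

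The shares of single chains overlapped between the sexes as well. The zeta chain Hba-x held 5.58%, 7.09% and 4.79% of the measured globin counts in the female and 3.43%, 5.11% and 3.77% in the male samples. Male 2 again lay within the female range, and the difference of -1.72 percentage points had an exact permutation p of 0.2 (two-sided, n = 3 each). Among the 3 beta-like transcripts, Hbb-y held 17.6%, 12.2% and 12.2% of the counts in the female and 10.5%, 13.0% and 9.44% in the male samples, with an exact permutation p of 0.3 (two-sided, n = 3 each). Hbb-bh1 held 0.0675 to 0.269% of the beta-like counts. With Benjamini-Hochberg adjustment over the 8 share and level comparisons the lowest adjusted p was 0.6.

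**Figure D3:**
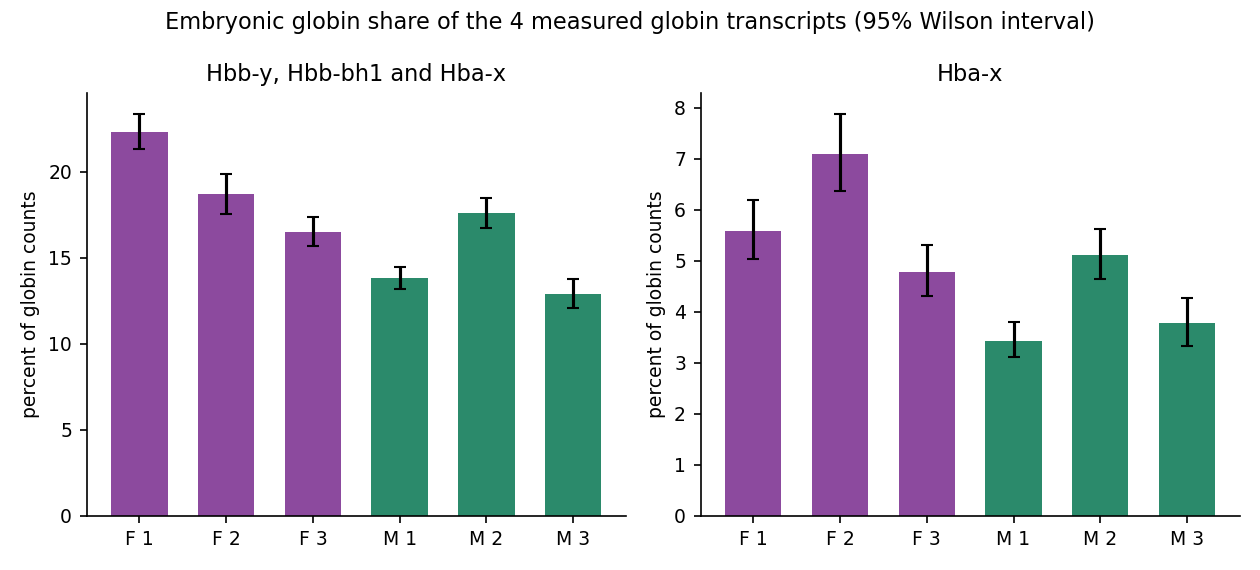
Percent of the counts of the 4 measured globins held by the 3 embryonic transcripts together (left) and by Hba-x alone (right) in each sample (F female, M male), as bars from 0 with 95% Wilson intervals. The left bars run from 12.9% in male 3 to 22.3% in female 1, and male 2 at 17.6% stands within the female range.

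The total of the 4 globins did not separate the sexes. It came to 1010, 879 and 741 CPM in the female and 1114, 1181 and 615 CPM in the male samples, or 0.0625 to 0.121% of all counts. Male samples held both the highest and the lowest value. The means were 877 ± 134 CPM and 970 ± 309 CPM (SD, n = 3 each), with a two-sided exact permutation p of 0.7. Without male 2 the male mean was 12.2 CPM below the female mean, so the direction of this difference rests on 1 sample.

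Of the 6 transcripts, 0 differed between the sexes in edgeR's quasi-likelihood test at a Benjamini-Hochberg adjusted p under 0.05, against 4 of 13374 tested IDs (0.0299%). At an unadjusted p under 0.05 the count was also 0 of 6, against 1537 of all tested IDs (11.5%), and in 0 of 6 did the CPM ranges of the sexes not overlap, against 2281 of all tested IDs (17.1%). DESeq2 also called 0 of 6, but gave an adjusted p for only 4 of them, not for Hbb-bh1 and Epb42. In log2 fold change of male against female, adult Hbb-bt stood at 0.22 (SE 0.19, edgeR adjusted p = 0.678) and the embryonic Hba-x at -0.34 (SE 0.29, edgeR adjusted p = 0.663). For Hbb-y the log2 fold change was -0.17 (SE 0.30) and for Hbb-bh1 it was 0.23 (SE 0.74). Slc4a1 had a log2 fold change of -0.17 (SE 0.17) and Epb42 of -0.27 (SE 0.42). The lowest adjusted p among the 6 was the 0.663 of Hba-x. The log2 fold changes of Hbb-y, Hbb-bh1, Slc4a1 and Epb42 were smaller than their SE, and those of Hbb-bt and Hba-x slightly larger. This SE was calculated back from the statistic of the edgeR test, so the comparison only restates that test.

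The fold changes of the globins depended on single samples. With 1 sample left out, the log2 fold change of Hbb-bt ranged from 0.0864 without male 2 and 0.0927 without male 1 to 0.46 without male 3, where its unadjusted p was 0.00575 and its edgeR adjusted p 0.232. That of Hba-x ranged from -0.73 without male 2 (unadjusted p = 0.0172, edgeR adjusted p = 0.527) to -0.0487 without male 3, where the difference between the sexes was close to 0. Hbb-y turned from -0.17 to 0.17 without female 1 and to 0.14 without male 3. Hbb-bh1, with its few counts, turned from 0.23 to -0.64 without male 1 and to -0.0578 without female 3. Slc4a1 and Epb42 stayed below 0 with any 1 sample left out, at -0.32 to -0.0462 and -0.52 to -0.0239.

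The 6 transcripts shared their lowest sample, a pattern that was looked for after the values had been seen. All 6 had their lowest CPM in male 3, beside 9.23% of all tested IDs. All 6 also had replicate 3 as the lowest sample within each sex, beside 6.34% of all tested IDs. Some of these orders were near ties within counting error. Slc4a1 had 36.9 CPM in female 3 and 37.2 CPM in female 2. Epb42 had 24 counts in male 3 and 26 in male 1, or 2.40 and 2.69 CPM. Hbb-bh1 had only 8, 10 and 8 counts in female samples 1 to 3. With plain library totals in place of TMM-scaled ones both counts stayed at 6 of 6. Male 3 and female 3 were not among the shallow samples, with 9841299 and 9827606 counts. Epb42 had 22 to 27 counts in every sample, and its CPM was lower in the deepest samples, male 1, male 3 and female 3. The numbers are replicate names, and the labels give no batch, date or litter that male 3 and female 3 share. The globins share red cells as a source and libraries, so these are not 6 independent observations.

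**Figure D4:**
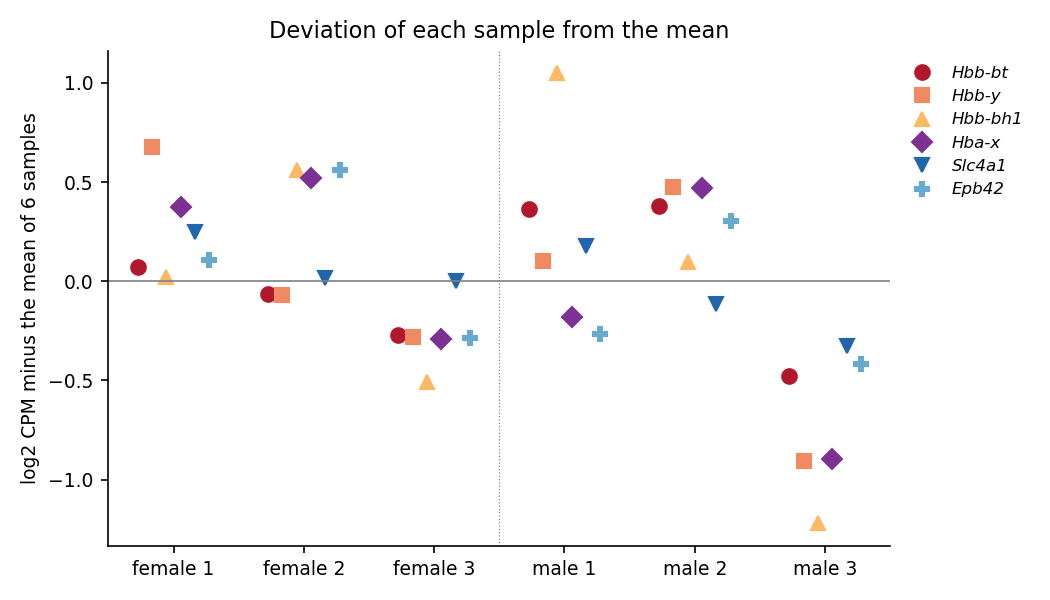
Log2 CPM of each transcript in each sample minus its mean over the 6 samples (y axis), with 1 symbol per transcript set side by side within a sample. All 6 symbols lie below 0 in male 3, and in female 3 those of the globins and Epb42 lie below 0 while Slc4a1 lies near it.

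Other genes of the red cell line were set beside this pattern. Of 35 further erythroid IDs tested, 6 were lowest in male 3 and 5 had replicate 3 lowest within each sex. Among the 6 were Rhag, Gata1, Slc25a37 and Cat, named after their values were seen. Rhag, the Rh-associated glycoprotein of the red cell membrane, had 2.42, 1.39 and 0.918 CPM in the female and 1.14, 0.458 and 0.300 CPM in the male samples, from 3 to 15 counts each. Gata1, a transcription factor of red cells and megakaryocytes, had only 5 to 17 counts per sample. Counted in the same way, 0 of 5 endothelial, 0 of 3 pericyte, 1 of 4 platelet and megakaryocyte, 1 of 9 white blood cell and microglia and 3 of 11 neural IDs tested were lowest in male 3. In summed CPM, the further erythroid lists together stood at 1023 in male 3, the lowest of the male samples but above the 977 of female 2, a sum to which widely expressed genes such as Cat and Aqp1 contribute. Summed over 8 endothelial genes, the male samples had 601.5 to 680.7 CPM, with male 3 at 655. All lay below the female samples at 681.2 to 727.4 CPM, though by a narrow margin. A two-sided exact permutation test of this sum gave an unadjusted p of 0.1, the lowest that 3 against 3 samples allow. Of the 5 endothelial IDs tested, 2 log2 fold changes were above 0 and 3 below, and 0 passed the adjusted threshold. For 3 pericyte genes male 3 was the highest at 424, and for 6 platelet and megakaryocyte genes it was at 30.1, within the female range of 25.1 to 32.6 and the male range of 29.8 to 43.5. White blood cell and microglia genes were at 255, the lowest of the male samples but above 2 of the 3 female samples. Neural genes were at 3367 in male 3, also the lowest of the male samples. The part of these cells in the result was not tested.

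The spread within a sex was wide for the globins. The within-sex SD of log2 CPM was 0.37 for Hbb-bt, 0.57 for Hba-x and 0.62 for Hbb-y, at the 89.2, 96.7 and 97.5 percentiles of the 8358 IDs that averaged 50 or more counts, whose median was 0.20. Of the membrane genes, Slc4a1 differed from the globins, with an SD of 0.20 near that median. Epb42 did not, with an SD of 0.40 at the 91.6 percentile of the same IDs. The counts of Epb42 and of Hbb-bh1, whose SD was 0.89, were low. The ratio of globin to Slc4a1 CPM varied between samples, while r of log2 CPM with Slc4a1 was 0.73 for Hbb-y, 0.71 for Hbb-bh1, 0.54 for Hbb-bt and 0.53 for Hba-x (6 samples, a description). The ratio of Hbb-bt to Slc4a1 CPM was 17.9, 19.2 and 16.8 in the female and 23.0, 28.6 and 18.2 in the male samples. The ratio of Hba-x to Slc4a1 CPM went from 0.789 in male 3 to 1.77 in male 2.

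Across the 6 samples, the IDs most like Hbb-bt in log2 CPM were Olfml1 (Pearson r = 0.99), Oxa1l, Pnma2, Taf12 and Pstk (each r = 0.96), out of 8354 IDs that averaged 50 or more counts. Hbb-bt spanned 535 to 973 CPM over the samples, Olfml1 32.3 to 39.2 CPM and Taf12 34.6 to 55.1 CPM. With 6 points that share library and depth, 29 IDs reached an r of at least 0.9, so these values are a description only. Among the members, r with Hbb-bt was 0.81 for Hbb-y, 0.81 for Hbb-bh1, 0.64 for Hba-x, 0.54 for Slc4a1 and 0.40 for Epb42. Over the 35 further erythroid IDs, r with Hbb-bt ran from -0.80 for Kel to 0.82 for Trim10, with 23 above 0 and 12 below.

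Further genes of the red cell line were compared between the sexes from 5 lists that held 50 genes with 64 IDs, of which 35 were tested. Of these 35 IDs, 0 passed the adjusted threshold in edgeR, and 22 log2 fold changes were above 0 and 13 below, with a median of 0.13 beside -0.01 for all tested IDs. At an unadjusted p under 0.05 there was 1 higher in the male samples, Slc25a38, and 1 higher in the female samples, the Epb41 ID NM_183428, named here after its value was seen, beside 11.5% of all tested IDs. DESeq2 called 0 as well, with 2 at an unadjusted p under 0.05, but it gave an adjusted p for only 13 of the 35. The ranges of the sexes did not overlap for 5 of the 35, beside 17.1% of all tested IDs.

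Heme synthesis had 4 tested IDs, and all 4 log2 fold changes were above 0, with 0 past the test. Urod, which removes carboxyl groups from uroporphyrinogen, had 45.6 ± 2.5 CPM in the female and 54.5 ± 5.73 CPM in the male samples (SD, n = 3 each). On the log2 scale it stood 0.25 higher in the male samples (SE 0.14, edgeR adjusted p = 0.505), and the sexes did not overlap. For Cpox and Ppox, the next enzymes of the pathway, the log2 fold changes were 0.07 and 0.26. With 1 sample left out, Cpox went from 0.000537 without female 1 to 0.17 without female 2, and Ppox from 0.0701 without female 2 to 0.39 without female 1. Summed over its 11 IDs the list came to 120 to 130 CPM in the female and 140 to 149 CPM in the male samples. Apart from Alas2, these enzymes are made in other cells too, so this sum is not a measure of red cells.

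The erythroid first enzyme of that pathway, Alas2, had only 0 to 2 counts per sample, which is at or under the floor. Fech, the last enzyme, had 1 to 7 counts, and the 2 IDs of Tfrc, the transferrin receptor that brings iron to dividing cells, had 0 to 2 and 2 to 6. Tfrc and Fech are widely expressed, so a low count for 1 ID in these tables cannot be read as absence of the gene. The cause of these low counts was not tested.

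Membrane and blood group genes had 11 tested IDs, with 3 log2 fold changes above 0 and 8 below and 0 past the test. The 3 with the highest CPM were Aqp1, a water channel, Sptb, the erythroid beta-spectrin, and Tmod1, which caps actin filaments. Their log2 fold changes were 0.11, 0.09 and -0.00. Aqp1 and Sptb reached 128 and 81.2 CPM on average, and both genes are also expressed outside red cells. The Epb41 ID NM_183428, a transcript of the skeleton protein 4.1, had 5.05 ± 0.668 CPM in the female and 2.22 ± 1.33 CPM in the male samples (SD, n = 3 each), a log2 fold change of -1.17 (SE 0.47, edgeR adjusted p = 0.385). It is 1 of 3 IDs of that gene, and how reads were divided among them is not stated. Another ID of it, NM_001128606, had a log2 fold change of 0.21.

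Erythroid transcription factors had 8 tested IDs, 6 with a log2 fold change above 0 and 2 below, and 0 past the test. Zbtb7a, which represses embryonic globin genes, stood at 0.17 (SE 0.15), Zfpm1, the partner of GATA factors, at 0.13 (SE 0.19) and Ldb1 (NM_010697), a bridging protein of globin enhancers, at 0.06 (SE 0.35) in log2 fold change. Klf1, the red cell factor that activates adult beta-globin, had 3 to 22 counts per sample.

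Iron uptake and receptor genes had 5 tested IDs, 4 above 0 and 1 below, and 0 past the test. Slc25a37, mitoferrin, which carries iron into mitochondria, had 114 ± 18.8 CPM in the female and 96.0 ± 6.08 CPM in the male samples (SD, n = 3 each). On the log2 scale the difference was -0.26 (SE 0.14, edgeR adjusted p = 0.498), the sexes did not overlap, and female 1 was the highest sample. Without female 1 the difference was -0.11. Its partner Abcb10 stood at 0.32 (SE 0.17) and Slc25a38, a mitochondrial glycine carrier for heme synthesis, at 0.46 (SE 0.21, edgeR adjusted p = 0.425). With 1 sample left out, Slc25a38 went from 0.24 without male 1 (unadjusted p = 0.246) to 0.63 without male 3, and Abcb10 from 0.19 without female 2 or male 1 to 0.46 without female 3. Of 7 tested IDs for cytoplasm and enzymes, 5 were above 0, 2 below and 0 past the test, and the 3 with the highest CPM, Cat, Bpgm and Prdx2 (NM_011563), had log2 fold changes of -0.15, 0.19 and 0.29.

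**Figure D5:**
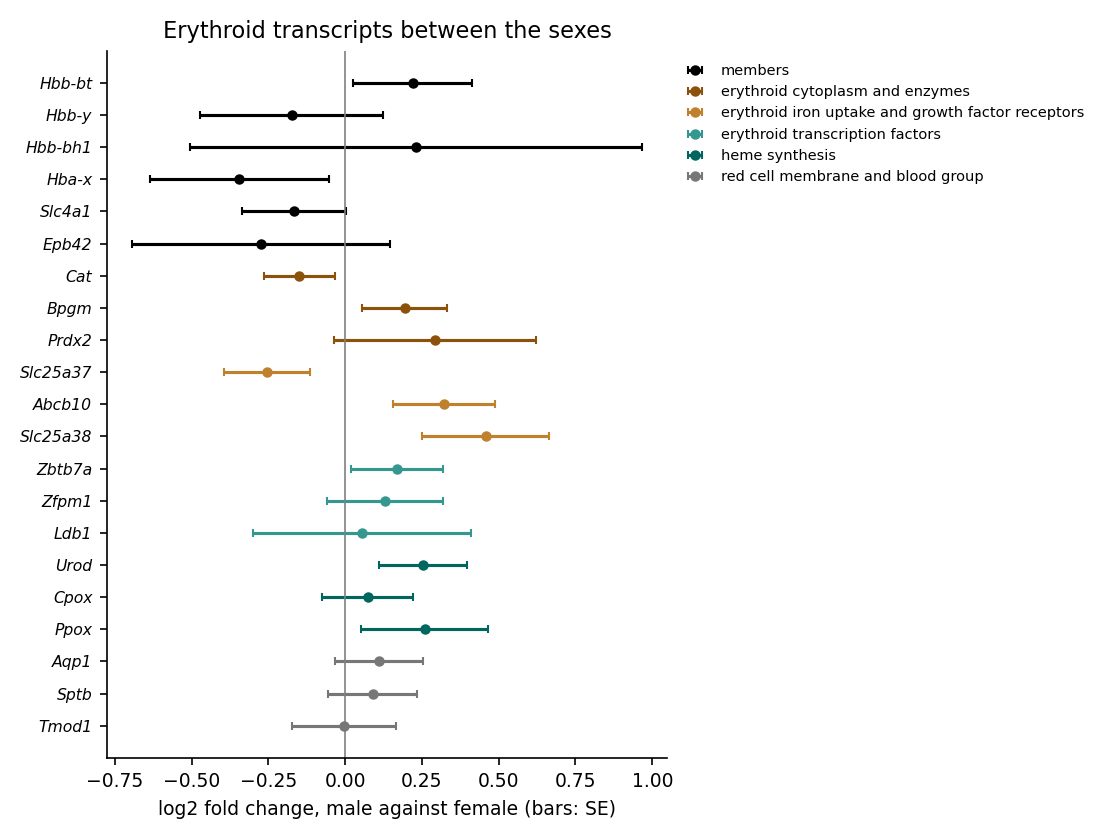
Log2 fold change of male against female (x axis) with its SE for the 6 transcripts (black) and the 3 IDs with the highest CPM of each further erythroid list (coloured by list). The points lie between -0.34 for Hba-x and 0.46 for Slc25a38, and 0 of them passed the adjusted threshold.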

How the data were processed

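Whole-brain RNA of 3 female and 3 male pools was sequenced from both ends after TruSeq stranded total RNA library preparation. Per the labels and the study's methods, the authors trimmed reads with Trimmomatic 0.32, aligned them with TopHat2 2.1.1 to mm9, assembled transcripts with Cufflinks 2.2.1, merged them with Cuffmerge and counted reads on the merged set with featureCounts 1.5.1. The values deposited by the authors are raw counts per RefSeq transcript ID. Strand, multi-mapping and overlap settings are not given in the sources used here, so counts of near-identical globins and of genes with several IDs are uncertain.

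Symbols came from a RefSeq table for 23359 of 23485 IDs (99.5%), and 126 stayed unnamed. The 13374 IDs that reached 10 counts in any sample were tested with edgeR 4.0.16, using TMM and the quasi-likelihood F test, and adjusted over all of them by Benjamini-Hochberg. Each SE of an edgeR log2 fold change was calculated back from its F statistic. Globin shares and levels were compared with two-sided exact permutation tests over samples. Lengths and positions came from GENCODE of NCBIM37. R 4.3.3, DESeq2 1.42.0, Python 3.11.15, scipy 1.17.1, pandas 2.3.3 and matplotlib 3.10.9 were used. The code was tested on simulated data. The alternatives were RLE and upper-quartile factors, other count filters, DESeq2, 1 RUVr factor, a replicate block and leaving out each sample. The text names every member with an ID, of each further list the called IDs and the 3 with the highest CPM, and the 5 IDs most like Hbb-bt. Epb41, Rhag, Gata1, Klf1, Alas2, Fech, Tfrc, Kel, Trim10 and the other globins in the closing section fall outside this rule and were chosen after their values were seen. The members and lists were chosen with earlier results of these data known. As pools are the only replicates, p-values measure the spread between pools. The labels give no batch, so no within-batch value could be computed.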

Additional observations from a re-analysis of the deposited data

How the results depend on the processing

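No member and no further erythroid ID passed the adjusted threshold under any of the other normalisations, filters, tools, RUVr corrections, the replicate block or the samples left out, while calls over all tested IDs moved from 4 to 276 without a count filter, 95 with DESeq2, 36 and 348 with 1 RUVr factor in edgeR and DESeq2, and 4 to 51 with a sample left out (51 without female 3, 12 without male 1, 8 without male 2 and 7 without male 3). DESeq2 gave no adjusted p for 2 of the 6 members (Hbb-bh1 and Epb42, also with the RUVr factor) and for 22 of the 35 further IDs (17 with the RUVr factor), so it tested the lists only in part. The globin level difference ranged from -12.2 to 270.9 CPM with 1 sample left out and was below 0 without male 2. The embryonic share difference kept its sign, at -5.82 to -2.84 percentage points, as did the Hba-x share difference, at -2.24 to -1.08. Among single transcripts, the log2 fold change of Hbb-bh1 turned to -0.0719 with 1 RUVr factor in edgeR, -0.14 with it in DESeq2 and -0.0604 under the replicate block. With 1 sample left out it ranged from -0.64 to 0.71 for Hbb-bh1, -0.48 to 0.17 for Hbb-y, -0.0094 to 0.23 for Sptb, -0.0948 to 0.0696 for Tmod1, -0.23 to 0.50 for Ldb1 (NM_010697) and -0.0442 to 0.27 for Zfpm1. Named IDs that kept their sign but moved by over 1.5 times included Aqp1 (0.0196 to 0.23), Zbtb7a (0.0398 to 0.30), Bpgm (0.0948 to 0.29), Prdx2 (NM_011563, 0.17 to 0.44), Urod (0.16 to 0.32) and Cat (-0.19 to -0.0932). Tmod1 was 0.0189 without a count filter. The cause of these turns was not tested. Over the 13374 tested IDs, same-numbered samples did not deviate together (r = -0.29, -0.06 and -0.20), and the labels give the numbers no shared source, so the samples were not treated as paired, although the 6 members were lowest in replicate 3 of each sex. The replicate block called 0 members, with 4 IDs called overall and 1 member, Hba-x, at an unadjusted p under 0.05 (log2 fold change -0.41, SE 0.18, unadjusted p = 0.0402, edgeR adjusted p = 0.581). Summing the near-identical copies was not run, because Hbb-bt was the only one of these copies with an ID. Depth limits Hbb-bh1 and Epb42 most, with 4 to 28 and 22 to 27 counts per sample.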

Other observations

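Other members of the globin family were read as well. Hbb-bh2, a beta-like gene of the same cluster, had 2 counts in female 2 and 0 in the other 5 samples, at or under the floor of 3 counts. Cygb, cytoglobin, which is made by fibroblast-like and neural cells and not by red cells, had 142 to 443 counts per sample. Mb, the muscle oxygen carrier myoglobin, had 0 to 1 counts per sample.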
